A study of Rattus norvegicus with 30 samples.

Results

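Amygdala transcripts were compared between male rats that reacted extremely to predator scent and male rats that were never exposed to it. The comparison rests on 10 of the 30 arrays of the study, those whose rat identifier ends in R and whose group is extreme responder (5 arrays) or control (5 arrays). All 30 arrays come from adult Sprague Dawley rats, with 1 rat per array. The extreme responders had smelled a predator and showed an extreme change in behaviour, while the controls underwent the behavioural tests without the scent. A further group of 5 male rats had the same exposure and a minimal response, and 3 groups of 5 female rats repeat the design (extreme, minimal and control). The sexes are those of the labels, since 0 of 8 Y-linked symbols looked up and 0 probes of Xist were found in the table. The interval between exposure and dissection is not given in the sources used here. Of 22523 probes on the Illumina BeadChips, 13308 exceeded the median of the array on 5 or more arrays and were tested. At the edge of this filter, 345 probes reached exactly 5 arrays and 427 reached exactly 4. Values below are log2 intensities, and differences are log2 changes (male extreme minus male control) with the standard error (SE) of 1 limma fit to all 6 groups.

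The amygdala assigns threat value to odours and sends it to the hypothalamus and brainstem, and it is rich in receptors for stress hormones. Corticosterone acts there through the glucocorticoid receptor, which switches on genes such as Fkbp5, Sgk1 and Tsc22d3. Predator scent exposure is used in rats as a model of lasting anxiety after trauma, and sorting the animals by behaviour separates affected from resilient individuals. The dissected tissue holds neurons, glia and vessels together, so a lower transcript level in fewer cells cannot be told apart from less RNA per cell.

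The 10 arrays correlated with each other at 0.978 to 0.993 over the tested probes, and 0 columns were identical. Forebrain markers were above the array median on all 10 arrays, among them Camk2a and Slc17a7 of excitatory neurons, Gad1 of inhibitory neurons, and Penk and Ppp1r1b of striatal and central amygdala neurons. Slc17a6, the vesicular glutamate transporter typical of thalamus and hypothalamus, was also above it on 10 arrays. Tcf7l2, a thalamic transcription factor, was above it on 1 array, and Prkcd, a kinase of central amygdala and thalamic neurons, on 10. Cyp19a1, the aromatase found in medial amygdala neurons, was above it on 5 arrays. Over the thalamic list, the mean level spanned 7.39 to 7.58 in male extreme rats and 7.47 to 7.64 in male controls. How precise these values are is limited by the number of arrays.

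A property of the arrays divided the groups compared here and is described first. The probes of Rpl37l1, Rpl7 and Rpl23, which encode proteins of the large ribosomal subunit or a close copy of one, took either a low or a high value on each of the 30 arrays. Their mean lay between 9.93 and 11.04 on 14 arrays, called the lower state, and between 12.42 and 12.96 on 16 arrays, called the higher state. The lower state held 5 of 5 male extreme arrays and 0 of 5 male control arrays. Of the other groups, male minimal had 1 array in the lower state, female extreme 1, female minimal 2 and female control 5. In all, 8 probes (3 named and 5 without a gene name) parted the 30 arrays by a gap of at least 1, with gaps of 1.02 to 3.55. The labels name no slide, extraction or hybridisation batch. Group and state cannot be told apart in the comparison of male extreme with male control rats, because neither group holds both states.

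**Figure D1:**
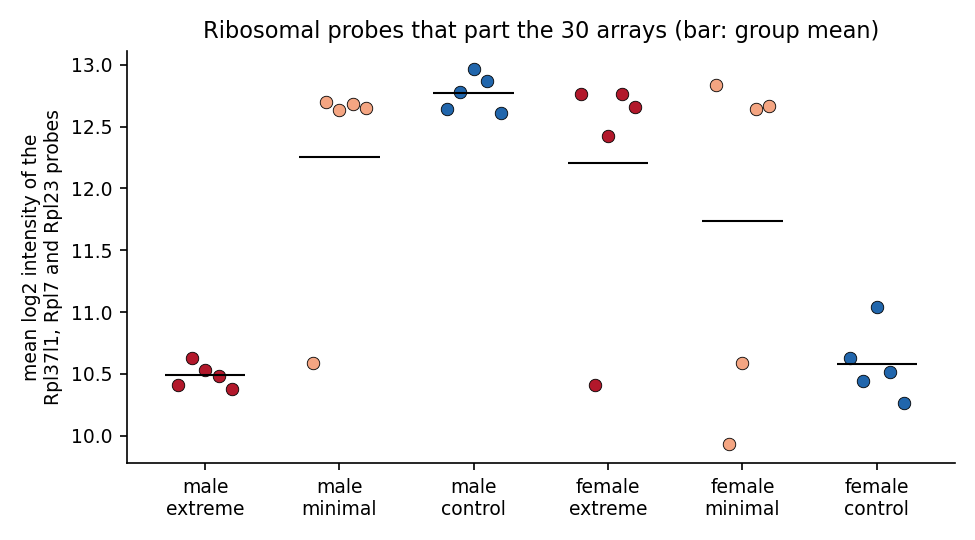
Mean log2 intensity of the Rpl37l1, Rpl7 and Rpl23 probes on each of the 30 arrays, by group, with 1 point per array and a bar at the group mean. The 5 male extreme arrays all lie in the lower cluster and the 5 male control arrays all in the higher one, while the female extreme and female control groups are arranged almost the other way round.

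Between male extreme and male control rats 106 probes passed an adjusted p of 0.05 (limma with Benjamini-Hochberg adjustment), which is 0.797% of the probes tested. Of these, 40 were higher (0.301%) and 66 lower (0.496%) in the extreme responders. The changes spanned 0.27 to 1.15 among the higher probes and -4.14 to -0.24 among the lower ones, with medians of 0.46 and -0.44. A gene name was attached to 74 of the 106 probes. With 1 probe per gene 72 passed (0.786%): 28 of 9165 named genes were higher (0.306%) and 44 lower (0.48%), and the median change over all named genes was -0.01. At an unadjusted p under 0.05 there were 1843 probes, or 13.8%. The 5 male extreme and 5 male control arrays did not overlap at 94 of the 106 probes, against 616 (4.63%) of all those tested. The 106 were chosen on the difference between these same arrays, so this excess follows from the choice. The number of calls depended on single arrays: it was 3 without male control 3, 20 without male control 1 and 20 without male extreme 5. It was 26 without male control 2, 34 without male control 4 and 38 without male control 5. Without male extreme 4, 3, 1 and 2 it was 36, 55, 52 and 111. All 106 probes kept their sign in each of these fits. At the 94 probes without overlap this was fixed in advance, since leaving out 1 array cannot turn the sign.

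Gal3st3, Sv2b and Ctnnd2 had the largest rises among named genes that passed, with 1 probe per gene. Gal3st3, a sulfotransferase that modifies galactose residues of glycoproteins, had 8.34, 7.88, 8.39, 8.36 and 8.61 in male extreme rats, against 7.31, 7.26, 7.56, 7.57 and 7.45 in male controls. No extreme responder was as low as the highest control, and the change was 0.88 ± 0.18 (adjusted p 0.0230, limma). Ctnnd2 encodes delta-catenin, an adhesion protein of dendrites and synapses. It read 9.08, 8.59, 8.98, 9.05 and 8.91 in male extreme rats, against 7.99, 8.29, 7.92, 8.40 and 8.28 in male controls, again without overlap (0.75 ± 0.15, limma adjusted p 0.0243). Sptbn1, the beta-spectrin of the membrane skeleton, was higher by 0.60 ± 0.15, and Agtpbp1, an enzyme that trims glutamates from tubulin tails, by 0.52 ± 0.11. Ap3d1, a subunit of an adaptor complex that sorts cargo to lysosomes and synaptic vesicles, was higher by 0.44 ± 0.10. Sv2b, a synaptic vesicle glycoprotein, was higher by 0.76 ± 0.17 (limma adjusted p 0.0380), but its groups overlapped. It read 12.70, 13.22, 13.01, 13.19 and 13.51 in male extreme rats, against 11.83, 12.71, 12.24, 12.88 and 12.14 in male controls.

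Further genes with large rises were Akt1, Hsp90b1, Bbs4, Sub1, Edf1, Adnp, Mgrn1 and Pygo2. Akt1, a growth factor kinase, read 9.59, 9.40, 9.70, 9.48 and 9.67 in male extreme rats, against 8.90, 9.06, 9.05, 9.22 and 8.97 in male controls (0.53 ± 0.13, limma adjusted p 0.0426). Hsp90b1, the HSP90 chaperone of the endoplasmic reticulum, read 12.41, 12.08, 11.99, 12.13 and 12.03 in male extreme rats, against 11.56, 11.56, 11.63, 11.64 and 11.36 in male controls (0.58 ± 0.10, limma adjusted p 0.0131). Both genes separated the 5 extreme responders from the 5 controls. Bbs4, a protein of the complex that carries receptors to the cilium, was higher by 0.58 ± 0.11. Among regulators of transcription, Sub1 rose by 0.64 ± 0.15, Edf1 by 0.58 ± 0.14, Adnp by 0.49 ± 0.11 and Pygo2 by 0.45 ± 0.11. Mgrn1, a ubiquitin ligase, rose by 0.48 ± 0.12.

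The actin gene Actb was measured by 3 probes, of which 2 passed. The brightest read 14.19, 14.26, 13.92, 14.35 and 13.98 in male extreme rats, against 13.52, 13.40, 13.56, 13.53 and 13.64 in male controls (0.61 ± 0.13, limma adjusted p 0.0286). The other Actb probes differed by 1.15 (adjusted p 0.0267) and 1.12 (adjusted p 0.0638) in the same fit. At the brightest Actb probe the male minimal arrays read 14.08, 13.65, 13.82, 13.52 and 13.55, and the first of these is the array in the lower state.

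**Figure D2:**
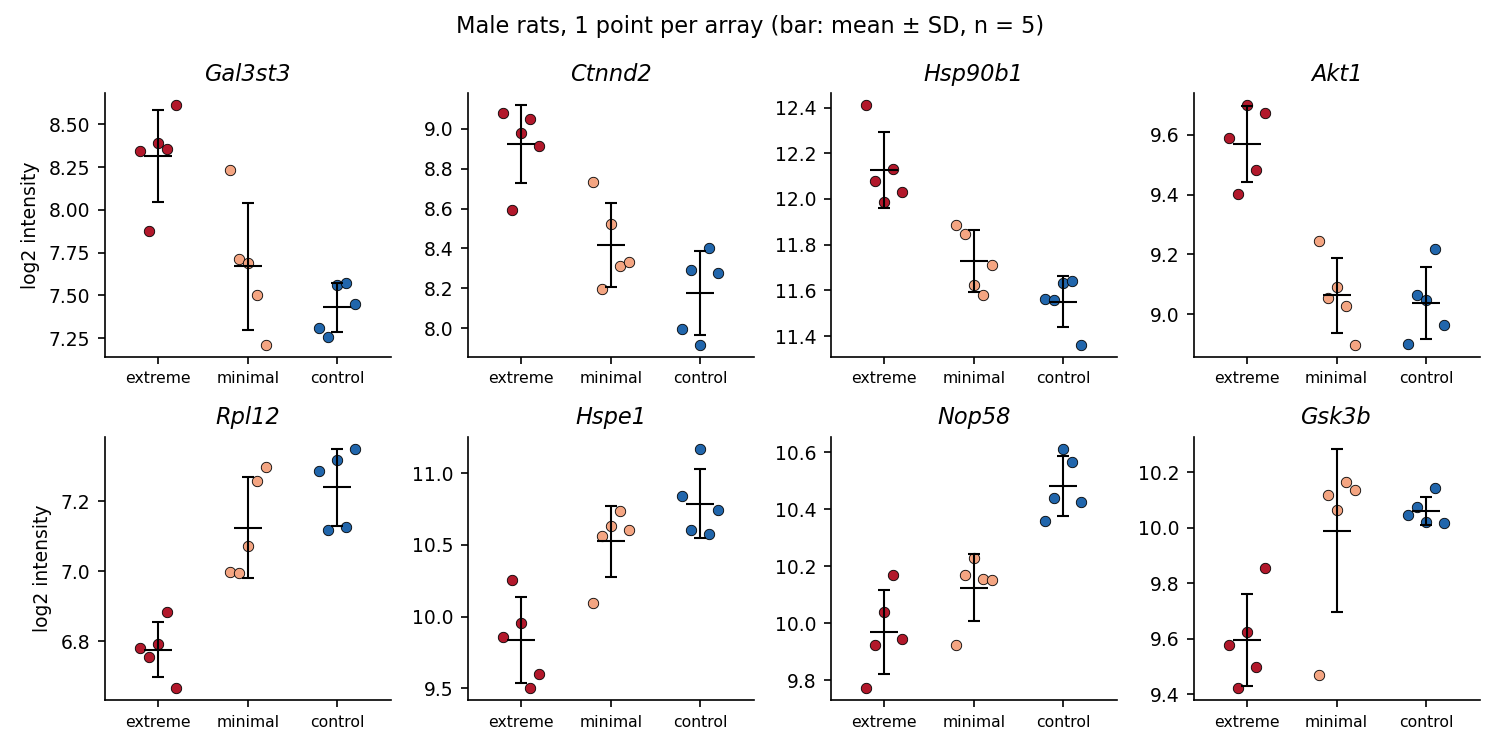
Log2 intensity on each array of male extreme, male minimal and male control rats for 4 genes that were higher (Gal3st3, Ctnnd2, Hsp90b1, Akt1) and 4 that were lower (Rpl12, Hspe1, Nop58, Gsk3b), with the mean and SD of 5 arrays as bars. Extreme and control arrays do not overlap in any of the 8 panels; in every panel but that of Rpl12 the male minimal array nearest to the extreme mean is the one in the lower state.

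The 10 largest falls were at the 3 ribosomal probes that define the array state and at 7 probes with no gene name. Rpl37l1 read 9.44, 9.83, 9.71, 9.72 and 9.57 in male extreme rats, against 12.30, 12.48, 12.71, 12.73 and 12.40 in male controls (-2.87 ± 0.61, limma adjusted p 0.0266). Rpl7 averaged 10.18 ± 0.20 in male extreme rats and 12.58 ± 0.17 in male controls, and Rpl23 averaged 11.63 ± 0.15 in male extreme rats and 13.21 ± 0.13 in male controls (SD, n = 5 each). These SDs are small beside the gap, whereas the SE of Rpl37l1 is large because the groups with both states enter the same variance (its SD was 1.26 in male minimal and 1.25 in female extreme rats). On the male minimal arrays Rpl37l1 read 9.68 on the array in the lower state and 12.44 to 12.56 on the others. Ribosomal protein genes have many near-identical copies in mammalian genomes, so which copy such a probe reads is uncertain.

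Of 62 cytosolic ribosomal protein genes measured, 6 fell and 0 rose, against 0.48% and 0.306% of all named genes. An unadjusted p under 0.05 was found for 22 of the 62, against 13.6% of all named genes. The median change over the list was -0.08, against -0.01 for all named genes. In the list 18 members had a positive and 44 a negative change, against 4270 and 4895 of all 9165 named genes. Besides the 3 above, Rpl12, a large-subunit protein of the stalk base, read 6.78, 6.75, 6.79, 6.88 and 6.67 in male extreme rats, against 7.29, 7.12, 7.32, 7.13 and 7.35 in male controls (-0.46 ± 0.09, limma adjusted p 0.0230). The Rpl12 values in male extreme rats are all below the array median of 7.02, and whether they exceed background was not tested, so the size of its change is uncertain. Rps10 of the small subunit fell by 0.42, with 13.46 to 14.00 in male extreme rats and 13.92 to 14.18 in male controls. Rpl23a of the large subunit fell by 0.38, with 14.11 to 14.42 in male extreme rats and 14.46 to 14.83 in male controls. Rpl23a did not overlap between the groups and Rps10 did, and both are named after their values were seen. The median difference of the list between arrays of the lower and the higher state, taken within the 3 groups that hold both, was -0.12.

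Messages of ribosomal proteins and of a few translation factors usually begin with a C followed by a run of pyrimidines, which places their translation under control of the mTOR kinase. Start-site windows of ribosomal protein genes that fell are shown for that reason. Tpt1, a small protein of this class that fell, and the elongation factor Eef1a1, of which 1 of 4 probes fell, were added after their values were seen. Each window holds 15 bases before and 15 from the annotated RefSeq start in the GRCr8 build, on the transcript strand, and capitals mark a C followed by at least 4 bases that are C or T, beginning within 5 bases of the start.
Rps10 (chr20:5700730-5700759, minus strand): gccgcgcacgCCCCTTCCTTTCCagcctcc
Rpl12 (chr3:36661925-36661954, plus strand): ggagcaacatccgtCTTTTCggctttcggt
Eef1a1 (chr8:88225055-88225084, minus strand): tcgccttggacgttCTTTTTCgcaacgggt
Rpl23 (chr10:83272170-83272199, minus strand): actaacttcctttctgaCTCTTTCCggacg
Tpt1 (chr15:57566129-57566158, plus strand): cccccctccccccgagcgccgctccggctg
A run of this kind was found in 4 of the 5 windows, with 13 bases in Rps10, 6 in Rpl12, 7 in Eef1a1 and 8 in Rpl23. It was present at 31 of 51 measured ribosomal protein genes with an entry (60.8%), and at 15.6% of all 27457 promoters of the table. Among named genes that fell it was present at 8 of 41 (19.5%), among those that rose at 4 of 21 (19.0%), and among all tested genes with an entry at 1169 of 7611 (15.4%). Rpl7, Rpl37l1 and Rpl23a are named only.

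Translation factors held a single call, where 0.786% of all named genes passed. An unadjusted p under 0.05 was found for 14 of 35, against 13.6% of all named genes. Of 35 translation factor genes, 1 rose and 0 fell (median change -0.01). That gene was Eif4a1, the RNA helicase that opens message leaders, at 11.05 to 11.28 in male extreme rats and 10.62 to 10.98 in male controls (0.39 ± 0.09, limma adjusted p 0.0436). Eef1a1 had 4 probes that did not move together. One read 12.09, 11.74, 11.07, 11.22 and 10.99 in male extreme rats, against 12.44, 12.50, 12.51, 12.37 and 12.18 in male controls (-0.98 ± 0.24, limma adjusted p 0.0468). The other 3 Eef1a1 probes differed by 0.15, 0.24 and 0.33 in the positive direction and did not pass. Tpt1 fell by 0.37, with 13.50 to 13.67 in male extreme rats and 13.78 to 14.09 in male controls. Nop58, a core protein of the snoRNA particles that guide ribosomal RNA methylation, read 9.77, 9.92, 10.04, 10.17 and 9.94 in male extreme rats, against 10.36, 10.44, 10.61, 10.57 and 10.43 in male controls (-0.51 ± 0.09, limma adjusted p 0.0131), without overlap.

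With 1 probe per gene, the largest fall after the 3 ribosomal probes was that of Hspe1. Hspe1, the partner of the mitochondrial chaperonin, read 9.86, 10.26, 9.96, 9.50 and 9.60 in male extreme rats, against 10.84, 10.61, 11.17, 10.57 and 10.75 in male controls (-0.95 ± 0.22, limma adjusted p 0.0362). It was the only one of 13 heat shock genes to pass (0 rose, 1 fell, median change -0.08), and the groups did not overlap. An unadjusted p under 0.05 was found for 3 of the 13. Among all named genes 0.786% passed and 13.6% had an unadjusted p under 0.05. Pfdn1, a prefoldin subunit that hands actin and tubulin to their chaperonin, fell by 0.57 ± 0.14, and Timm10b, a chaperone of mitochondrial import, by 0.50 ± 0.12. Of 21 genes of the endoplasmic reticulum stress response, Hsp90b1 rose and 0 fell (median change -0.05, and 4 at an unadjusted p under 0.05). Dnajc3, an inhibitor of the stress kinase PERK, differed by -0.32 (adjusted p 0.0604), and Ddit3, which encodes the transcription factor CHOP, by -0.37 (adjusted p 0.139), both short of the threshold in limma. An unadjusted p under 0.05 was found for 14 of 37 proteasome genes, against 13.6% of all named genes. Of the 37, 1 fell and 0 rose past the threshold (median change -0.12). It was Psmd11, a lid subunit, with 11.54 to 11.89 in male extreme rats and 11.99 to 12.30 in male controls (-0.39 ± 0.09, limma adjusted p 0.0403).

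The remaining genes among the 15 largest falls were Strn3, Ppt2, Upp1, Thnsl2, Yif1b, Mfng and Gsk3b. Gsk3b, a kinase that AKT inhibits, read 9.58, 9.42, 9.62, 9.50 and 9.85 in male extreme rats, against 10.05, 10.07, 10.02, 10.14 and 10.02 in male controls (-0.47 ± 0.10, limma adjusted p 0.0358). Strn3, a regulatory subunit of protein phosphatase PP2A complexes, read 10.34, 9.97, 9.74, 9.90 and 9.52 in male extreme rats, against 10.59, 10.56, 10.51, 10.46 and 10.58 in male controls. Neither Gsk3b nor Strn3 overlapped between the groups, and Strn3 fell by 0.64 ± 0.15. Ppt2, a lysosomal thioesterase, fell by 0.50 ± 0.10, Upp1, which splits uridine, by 0.50 ± 0.12, and Mfng, a glycosyltransferase acting on Notch, by 0.48 ± 0.12. Thnsl2, a threonine synthase-like protein, fell by 0.49 ± 0.11. Yif1b, which takes part in the traffic of the serotonin 1A receptor in neurons, fell by 0.48 ± 0.11 at its brighter probe, and its other probe differed by 0.13.

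Genes of the glucocorticoid response did not pass in male rats. Of 18 glucocorticoid-induced genes, 0 passed the limma threshold and 0 had an unadjusted p under 0.05, and their median change was -0.06. Over all named genes 0.786% passed and 13.6% had an unadjusted p under 0.05, so 0 calls among 18 genes say little. Sgk1, a kinase induced by corticosterone, had 11.32, 10.82, 10.42, 10.66 and 10.45 in male extreme rats, against 10.81, 10.65, 10.65, 10.99 and 10.62 in male controls. The groups overlapped fully, and the 95% confidence interval of the Sgk1 change was -0.55 to 0.54. For Fkbp5, a co-chaperone that lowers receptor affinity, the change was -0.15 (95% interval -0.75 to 0.44). The interval was -0.38 to 0.14 for Tsc22d3, the mediator known as GILZ. Nr3c1, the glucocorticoid receptor, averaged 6.86 ± 0.10 in male extreme rats and 6.98 ± 0.09 in male controls (SD, n = 5 each), with an interval of -0.28 to 0.05 for the change. For Nr3c2, the mineralocorticoid receptor, the interval was -0.27 to 0.25. The Nr3c1 probe lies close to the array median of 7.02. Of 11 genes of the receptor complex, 0 passed (1 at an unadjusted p under 0.05), and of 12 clock genes 0 passed (2 unadjusted).

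Lists of stress peptides and of activity genes had no call either. Of 22 stress neuropeptide genes, 0 passed in limma and 0 had an unadjusted p under 0.05 (median change -0.08). The shares over all named genes were 0.786% and 13.6%. Npy, an anxiolytic peptide, differed by 0.54 ± 0.35. Avp, the vasopressin gene, read 6.89, 7.01, 7.21, 8.92 and 6.99 in male extreme rats, against 7.07, 7.43, 11.57, 8.63 and 7.18 in male controls. Male extreme 4 and male control 3 were the highest of their groups, and the Avp difference was -0.97 ± 0.63. Of 20 immediate early genes, which neurons switch on within minutes of activity, 0 passed in limma and 0 had an unadjusted p under 0.05 (median change -0.03).

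Synaptic and energy genes held few calls, where 0.786% of all named genes passed and 13.6% had an unadjusted p under 0.05. Of 21 genes of vesicle release 1 rose, the Sv2b described above, and 0 fell (median change 0.06, and 2 at an unadjusted p under 0.05). Of 22 actin and tubulin cytoskeleton genes 1 rose, Actb, and 0 fell (median change 0.13, and 6 at an unadjusted p under 0.05). Of 20 glutamate receptor genes 0 passed and 3 had an unadjusted p under 0.05. Their median change of 0.17 was the highest of 37 lists. Of 12 GABA genes 0 passed and 2 had an unadjusted p under 0.05. Gabbr1, a GABA-B receptor subunit, averaged 10.26 ± 0.14 in male extreme rats and 9.37 ± 0.12 in male controls (SD, n = 5 each) with a limma adjusted p of 0.103. Of 69 oxidative phosphorylation genes, assembly factors included, 0 passed and 12 had an unadjusted p under 0.05 (median change -0.01). Atp5pf, a coupling factor of ATP synthase, read 12.71, 12.78, 12.63, 12.69 and 12.79 in male extreme rats, against 11.93, 11.91, 11.93, 11.76 and 11.75 in male controls. On the male minimal arrays it read 12.75 on the array in the lower state and 11.66 to 11.98 on the others. Its change of 0.86 missed the threshold (limma adjusted p 0.0616), and its difference between lower and higher state was 1.02. In all, 7 of the 37 lists had a called member and 30 had 0.

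**Figure D3:**
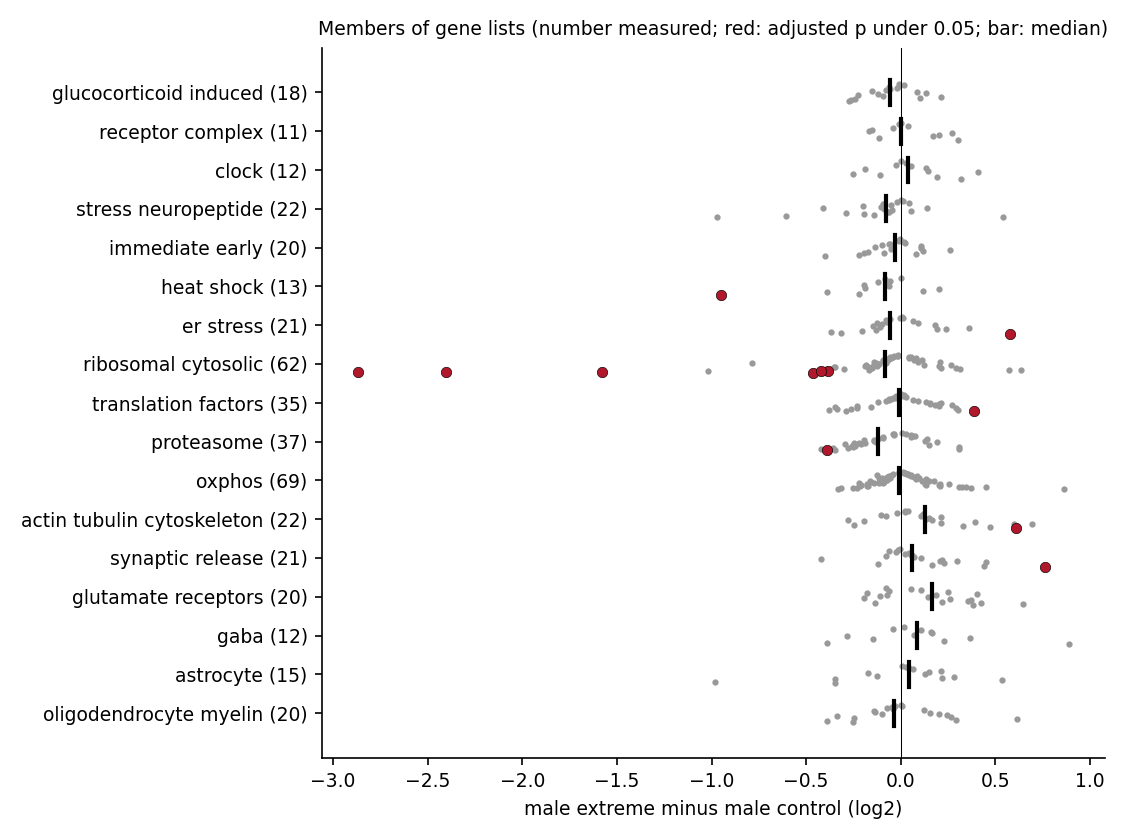
Log2 change (male extreme minus male control) of each measured member of 17 gene lists, with 1 point per gene, the number measured in brackets, red points for members with an adjusted p under 0.05 and a bar at the list median. The 6 red points of the ribosomal list all lie below 0, and the list medians stay near 0.

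Markers of other cell types and neighbouring regions did not pass: 0 of 172 memberships of 12 marker lists were called in limma. An unadjusted p under 0.05 was found for 10 of the 172. Over all named genes the shares were 0.786% and 13.6%, so 0 calls in lists of this size say little. The mean level of 20 myelin genes spanned 8.98 to 10.24 in male extreme rats and 8.96 to 10.02 in male controls. That of 23 genes of striatum and central amygdala spanned 8.56 to 9.59 in male extreme rats and 8.51 to 9.67 in male controls. For 15 astrocyte genes the span was 11.05 to 11.36 in male extreme rats and 10.92 to 11.39 in male controls. The hypothalamic list, which includes Avp and Oxt, spanned 7.52 to 7.88 in male extreme rats and 7.59 to 8.53 in male controls. These ranges overlapped throughout. The count of probes called was 356 with myelin, striatal and thalamic levels as covariates, and all 106 probes kept their sign in that fit.

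How the called probes behave between array states was measured in the 3 groups that hold both, male minimal, female extreme and female minimal, which share no array with the comparison. With 4 arrays of the lower state against 11 of the higher state, 731 probes (5.49%) differed in limma, 438 higher and 293 lower in the lower state. The 8 probes that part the arrays by at least 1, whose sign the split fixes, were left out. Any probe that parts them by a smaller gap was kept, and its sign is fixed as well. Of the other 98 called probes, 93 (94.9%) had the same sign as the state difference, against 8418 of 13300 probes tested (63.3%). Within male minimal alone, where 1 array is set against 4, the count was 89 of 98 (90.8%), against 63.6% of all probes. It was 89 of 98 (90.8%, against 60.9%) within female minimal and 80 of 98 (81.6%, against 56.3%) within female extreme. Of the 98, 26 also differed between the states in limma, all 26 in the same direction. The median size over the 98 was 0.436 for the change and 0.212 for the state difference, and over the 13300 probes 0.0899 and 0.110. The called probes were chosen on the change and not on the state difference. The state itself, however, was defined by 3 probes that are among the largest falls of this comparison, so the choices are not independent. In the groups that hold both states, arrays of the lower state also had higher levels of myelin and thalamic genes, with median differences of 0.70 and 0.67 over those lists. Only 1 of these 4 lower-state arrays is male. On it the myelin-list gene Olig1 read 11.23, against 11.38 to 11.69 on the other male minimal arrays. Plekhb1 read 11.20 against 11.11 to 11.52, and Nkx6-2 9.01 against 8.19 to 8.97. Between male extreme and male control rats those lists differed by medians of -0.04 and -0.05.

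Single genes differed in how far they followed the state. For Rpl23 the state difference was -1.57, beside a change of -1.58, for Hspe1 -0.79 beside -0.95, for Actb 0.53 beside 0.61 and for Akt1 0.45 beside 0.53. For Hsp90b1 it was 0.26 beside 0.58, for Nop58 -0.22 beside -0.51, for Gal3st3 0.28 beside 0.88 and for Gsk3b -0.12 beside -0.47. Over the 3 groups, opposite signs were found for Agtpbp1 (-0.03 beside 0.52), Dis3l2, an exonuclease (-0.01 beside 0.31), the interleukin gene Il5 (0.05 beside -0.31) and 2 unnamed probes. Within male minimal alone, 1 lower-state array minus the mean of 4 others gave 0.70 for Gal3st3, -0.65 for Gsk3b and 0.14 for Agtpbp1. The same difference was -1.43 for Rpl23, -0.54 for Hspe1, 0.45 for Actb, 0.23 for Akt1, 0.19 for Hsp90b1 and -0.25 for Nop58. Dis3l2 and Il5 are named after their values were seen. Il5 averaged 6.91 in male extreme and 7.22 in male control rats, close to the array median of 7.02. Whether Il5 exceeds background was not tested. With the state as a covariate, 0 probes passed in limma, 996 had an unadjusted p under 0.05, and 104 of the 106 kept their sign. The median size of the 106 changes was then 0.219 instead of 0.454, and their median SE 0.120 instead of 0.103. In this fit Gal3st3 changed by 0.61 ± 0.24, Agtpbp1 by 0.55 ± 0.15, Gsk3b by -0.35 ± 0.14, Hsp90b1 by 0.32 ± 0.12, Actb by 0.079 ± 0.11 and Rpl23 by -0.0053 ± 0.14. It borrows the state difference from the other 3 groups.

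**Figure D4:**
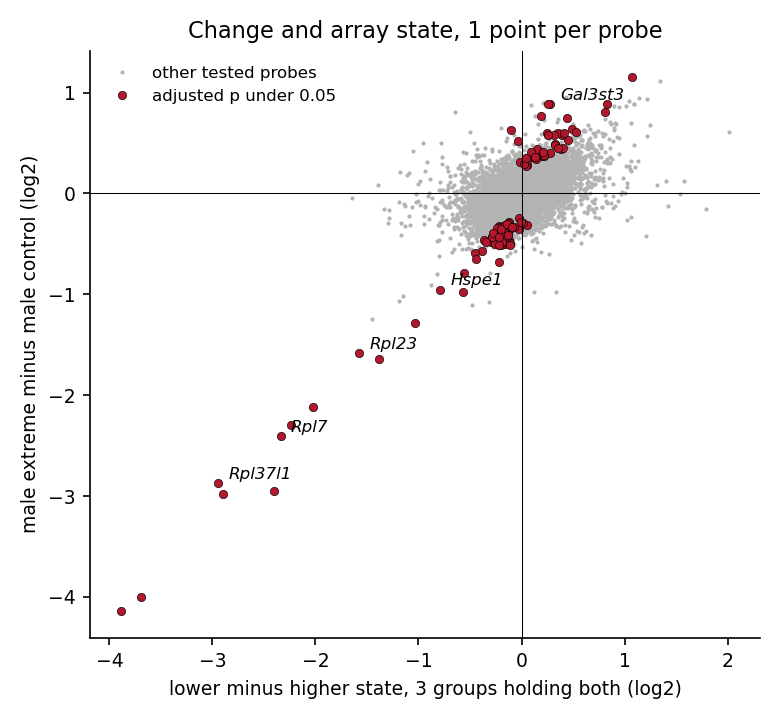
Each point is a tested probe, with the log2 difference between arrays of the lower and the higher state in the 3 groups that hold both (x axis) against the log2 change, male extreme minus male control (y axis), and with red points for an adjusted p under 0.05. Nearly all red points lie at the lower left and upper right of the origin, and the 8 probes that part the arrays lie at the lower left end; across the other 13300 probes, which are not independent of each other, Pearson's r was 0.465.

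The male minimal responders give the level after exposure with little change in behaviour. In male minimal minus male control 0 probes passed in limma and 686 (5.15%) had an unadjusted p under 0.05. In male extreme minus male minimal 0 passed and 1330 (9.99%) had an unadjusted p under 0.05. Both comparisons share arrays with that of male extreme and male control rats. Gal3st3 was 0.24 above the controls in minimal responders, beside 0.88 in extreme responders, and Akt1 0.03 beside 0.53. Sv2b was 0.76 above the controls in both exposed groups. Bbs4 was 0.42 above the controls in minimal responders, beside 0.58 in extreme responders, Eif4a1 0.31 beside 0.39, and Nop58 differed by -0.36 beside -0.51. Of the same 98 called probes, 80 were nearer to the male extreme than to the male control mean on the minimal array in the lower state. On the other 4 minimal arrays 26, 31, 17 and 18 of the 98 were.

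The change between extreme responders and controls ran differently in the sexes. All male arrays carry a rat identifier ending in R and all female arrays one beginning with F. Sex and identifier series therefore cannot be told apart. In female extreme minus female control 869 probes passed (6.53%), 446 higher (3.35%) and 423 lower (3.18%) in extreme responders. Of the 106 probes called in male rats, 76 had the opposite sign in female rats, a share of 71.7% against 58.4% of all tested probes. Of these, 24 passed in the opposite direction, and 1 of the 106 passed in the same direction in both sexes. That probe is Eif4a1, with 0.39 in male and 0.58 in female rats. The difference between the sexes in the change (male minus female), tested as a contrast in limma, passed for 1092 probes (8.21%), with 537 positive (4.04%) and 555 negative (4.17%). It passed for 23 of the 30 genes with the largest male changes. These genes were chosen on the male change, which is part of this contrast, so a high count follows from the choice. Sptbn1 changed by 0.60 in male and -0.81 in female rats, Adnp by 0.49 in male and -0.53 in female rats, and Pfdn1 by -0.57 in male and 0.60 in female rats. Sgk1 changed by -0.01 in male and 1.47 in female rats, a difference of -1.48 (limma adjusted p 0.0151). Tsc22d3 changed by -0.12 in male and 0.46 in female rats (limma adjusted p of the difference 0.0433). The myelin and thalamic lists changed by medians of 0.61 and 0.37 in female rats, beside -0.04 and -0.05 in male rats. Whether the differences at Sgk1 and Tsc22d3 go with tissue content was not tested. All 5 female control arrays and 1 female extreme array are in the lower state, so state and group run the opposite way in the sexes. With the state as a covariate 6 probes passed for the difference between the sexes. Whether the fewer calls come from smaller differences or from larger SEs was not tested.

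**Figure D5:**
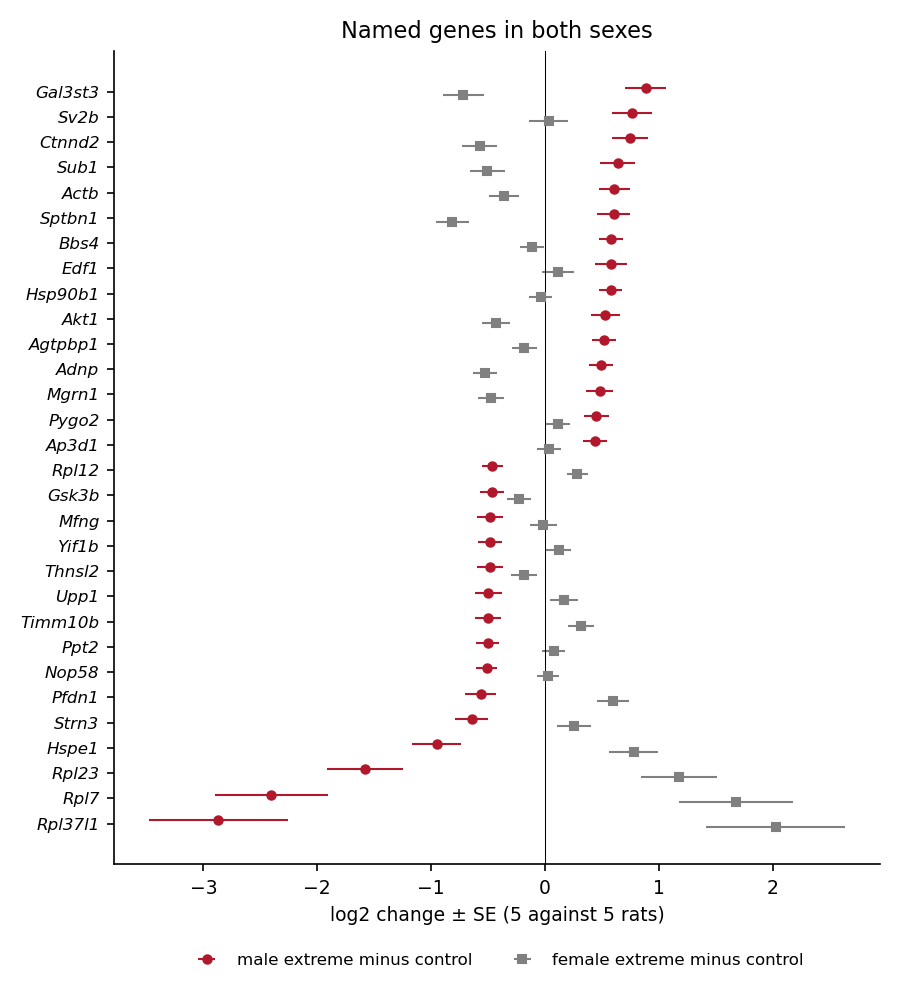
Log2 change, extreme minus control, with its SE (5 against 5 rats) for the 30 named genes with the largest changes in male rats, male in red circles and female in grey squares. For 23 of the 30 genes the female value lies on the other side of 0.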

How the data were processed

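Per the labels' protocols, amygdala was dissected on dry ice into RNAlater, RNA was isolated on columns with DNase treatment, and biotinylated cRNA was prepared with the Illumina TotalPrep kit. The values are the log2 intensities deposited by the authors, 1 column per array. That they are log2 values was inferred from the span of 6.38 to 15.06. All columns have 1 median (7.02) and equal quartiles, as after quantile normalization. Neither the software nor the background correction was given in the sources used here. A second deposited table has 60 per-sample columns (30 signal, 30 detection p-value) whose names match no sample, and it was not used.

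Of the 22523 probes, 13793 had 1 gene symbol, 0 several and 8730 none, and 13752 matched the RefSeq gene table of GRCr8, which changed 0 symbols. Of the 13308 probes tested, 9358 were named and stand for 9165 genes, of which 184 have more than 1 probe; each gene is represented by its brightest probe on average. Start-site windows come from the RefSeq promoter table of GRCr8.

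Group means of the 6 groups were fitted with limma 3.58.1 in R 4.3.3 (24 residual degrees of freedom), and p-values were adjusted over all tested probes of a comparison. Replicates are separate rats, per the labels. The steps were tested on simulated data. Named are the 15 largest called changes each way, for each list described the 3 with the smallest p, Nr3c1, Nr3c2, Fkbp5, Sgk1, Tsc22d3, and the 5 largest sex differences each way. Not all are printed; others are marked in the text. The state of the arrays and the members, lists, tests and alternatives were chosen with earlier results of these data known. The alternatives were the filter, a normexp background with an offset of 16, centring, array weights, the variance model, a block on the replicate number, 1 probe per gene, fewer groups in the fit, covariates and leaving out single arrays.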

Additional observations from a re-analysis of the deposited data

Results flagged for a closer look

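Among the 82 named genes, 164 sets of 5 arrays were searched for a single array far from the other 4, and 10 were found; chance alone gives about 1 in 20. In male extreme rats, replicate 1 was low for Upp1 (8.43) and high for Ier5 (8.50) and Gabrg1 (8.43), and replicate 4 was high for Avp (8.92) and Oxt (8.09). In male controls, replicate 3 was high for Oxt (10.52), replicate 2 was low for Csnk1d (7.87) and high for Gabrg1 (7.74), and replicate 1 was low for Cnih2 (9.62) and Gabbr1 (9.15).

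For 47 of the 82 named genes the change differed between the sexes by the contrast of the limma fit. Over all tested probes the share was 8.21%. Some of the named genes were chosen for a large male change, which is part of this contrast, and others for a large sex difference. A high count therefore follows from the choice. Sex cannot be told apart from the identifier series (R for all male and F for all female rats). The values that follow are the male minus the female change, on the log2 scale. Among genes that passed in male rats, positive differences were found for Gal3st3 (1.60), Sptbn1 (1.41), Ctnnd2 (1.32), Sub1 (1.14), Adnp (1.02), Actb (0.97), Akt1 (0.96), Mgrn1 (0.95), Agtpbp1 (0.70), Bbs4 (0.69) and Hsp90b1 (0.61). Negative ones among these were Rpl37l1 (-4.89), Rpl7 (-4.08), Rpl23 (-2.76), Hspe1 (-1.73), Pfdn1 (-1.16), Strn3 (-0.90), Timm10b (-0.82), Rpl12 (-0.75), Upp1 (-0.67), Yif1b (-0.60), Ppt2 (-0.58) and Nop58 (-0.54).

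Genes that did not pass in male rats also differed between the sexes. Of these, Thrb, Agap2, Map1b and Ly6h were named only for their large sex difference. Among neuronal and signalling genes the difference was 2.17 for Thrb, a thyroid hormone receptor, 1.68 for Agap2, 1.67 for Map1b, 1.57 for Ly6h, 1.24 for Gabbr1, 1.21 for Gria3, 1.17 for Nsf, 0.78 for Grin2b, 0.71 for Pfn2, 0.71 for Csnk1d, 0.69 for Ncor1 and 0.38 for Cry2. Of astrocyte genes, Agt differed by -1.96 and Mlc1 by 1.52. Of stress-response genes, Sgk1 differed by -1.48, Gadd45g by -1.09, Ddit3 by -0.66, Tsc22d3 by -0.58 and Atf3 by -0.34. The myelin and thalamic lists also changed in female rats (medians 0.61 and 0.37). Whether the differences at these genes go with tissue content was not tested. In translation, protein breakdown and respiration the values were 1.34 for Atp5pf, -0.83 for Eif3m, -0.72 for Ndufaf5, -0.48 for Psmb1 and -0.37 for Ndufaf1. Lower-state arrays made up 5 of 5 male extreme and 0 of 5 male control arrays, but 1 of 5 female extreme and 5 of 5 female control arrays. For the difference between the sexes 1092 probes passed without and 6 with the state as a covariate. Whether the fewer calls come from smaller differences or from larger SEs was not tested.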

How the results depend on the processing

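The 106 probes called (40 higher, 66 lower, 7 lists with a member) became 59 without a filter (21 higher, 38 lower, 4 lists), 40 after normexp (15 higher, 25 lower, 3 lists) and 44 with robust variances and an intensity trend (16 higher, 28 lower). They became 362 with array weights (159 higher, 203 lower, 13 lists), 350 from the male arrays alone (159 higher, 191 lower, 15 lists), 255 from the 10 arrays alone (131 higher, 124 lower, 14 lists) and 356 with 3 marker covariates (163 higher, 193 lower, 16 lists). With the state as a covariate 0 passed (0 higher, 0 lower, 0 lists), Rpl37l1 turned to 0.081 (adjusted p 0.931), and 6 probes differed between the sexes, against 1833 with the marker covariates. Leaving out single arrays gave 3 to 111 calls, 2 to 34 higher, 1 to 77 lower, 1 to 5 lists and 807 to 1105 sex differences. Male minimal minus control gave 0 calls, but 2 with array weights and 1 without male control 4. Of 32 named calls, 16 passed without a filter, 13 after normexp, and from 1 (without male control 3) to 25 (without male extreme 2) with 1 array left out. All 106 kept their sign in every fit in which they were tested, except 2 with the state as a covariate. Where the groups do not overlap, leaving out 1 array cannot turn the sign. The replicate numbers are the order in which the arrays of a group are listed and are not given by the labels. A block on them therefore has no basis in the design. With this block 94 probes passed (40 higher, 54 lower), and Edf1, Mgrn1 and Pfdn1 did not. Same-numbered arrays correlated at -0.143 to 0.287, and 2 of 5 correlated best with their own number. Of 813 list medians recomputed, 6 moved beyond the SD of the members. A slide block was not run, since the labels give no slide.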
